A study of Mus musculus with 76 samples.

Results

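The genes described here are 10 amino acid transporter genes, chosen by their symbols in the gene expression tables of mouse visceral white adipose tissue (WAT) and liver: Slc3a2, Slc7a5, Slc1a5, Slc7a1, Slc7a2, Slc38a2, Slc38a3, Slc38a4, Slc38a9 and Slc43a1. They are 10 of 20295 gene entries in the 2 tables together, and all 10 are listed in both. The study compared mice of 2 genotypes. Fnip2C/C mice carry a T-to-C change in the 3′ untranslated region of Fnip2, made in the C57BL/6 background by CRISPR/Cas9. With it they carry a G-to-C change that disrupts the PAM, the short sequence that Cas9 needs for recognition. Fnip2T/T mice keep the ancestral T allele and served as controls, so the C allele and the added change cannot be told apart. All mice were female, ate chow ad libitum, and their ages are not given in the sources used here. WAT came from 4 Fnip2C/C and 5 Fnip2T/T mice and liver from 5 and 5, with 6 of the 13 mice giving both tissues.

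Amino acids cross membranes on carriers of several families. Slc3a2 encodes the heavy chain (CD98, or 4F2hc) that escorts light chains such as the leucine carrier Slc7a5 to the plasma membrane. Slc1a5 and Slc38a2 take up glutamine and other neutral amino acids, Slc7a1 and Slc7a2 take up arginine and lysine, and Slc38a9 is a lysosomal arginine sensor that signals to mTORC1, the kinase complex that couples growth to amino acid supply. Fnip2 binds folliculin, which acts on the Rag GTPases of the same pathway.

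In WAT, Slc3a2 was 4.72-fold lower and Slc7a1 was 1.98-fold higher in Fnip2C/C than in Fnip2T/T mice, and no other transporter gene of the group passed the test. In liver none of them passed it. For both Slc3a2 and Slc7a1 the genotype difference itself differed between the tissues. The same held for 29.2% of all 10404 genes tested in both tissues. For Slc7a1 the liver side rests on 1 to 23 reads per library. It reached the minimum level for testing in liver only through the Fnip2T/T mice. Among WAT genes as a whole, differences between the genotypes were common: 32.1% of 12798 tested genes had a limma adjusted p under 0.05, against 2 of the 8 transporter genes that could be tested. In liver the share was 0% of 11710 tested genes.

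Gene levels are given as normalized counts, the authors' read counts divided by 1 scaling factor per library, and folds come from means of log2(normalized count + 1). The libraries held between 4180209 and 6277644 recovered reads in WAT and between 5583041 and 7523200 in liver. Of all WAT genes tested, 17.0% were lower and 15.1% were higher in Fnip2C/C, and these shares apply to each WAT marker count below. Of 10 adipocyte markers, 6 were lower in Fnip2C/C WAT and none was higher. Their summed level ranged from 76149.7 to 245541 in Fnip2C/C and from 128344 to 217916 in Fnip2T/T libraries, with none of the 10 at 0. Without mouse 593, described below, 4 were lower and 1 was higher. Of all 12691 WAT genes tested in that fit, 2009 were lower and 1752 higher. In liver the 8 hepatocyte markers summed to between 582636 and 786752 in every library. Of 8 hepatocyte markers, 3 could be tested in WAT and 2 were lower in Fnip2C/C, with summed levels of 203 to 659 against 833 to 2891; 3 of the 8 had no row. The lymphocyte markers summed to 326 to 588 in Fnip2C/C and 651 to 1003 in Fnip2T/T WAT. Only 2 of these 8 markers could be tested, and Ighm was the 1 gene past the test. Endothelial markers summed to 1516 to 2694 in Fnip2C/C and 2532 to 3823 in Fnip2T/T WAT, with 2 of 6 lower and 1 higher. Macrophage markers summed to 2892 to 6084 and 2655 to 4436, with 3 of 8 lower and 1 higher. The WAT library of Fnip2C/C mouse 593 stood apart, with ovary markers at a summed normalized count of 19419 against at most 61.4 in the other 8, so the WAT differences of the tested transporter genes, and the counts of the lists, are also given without it. In bulk tissue, fewer cells of a type and less RNA per cell cannot be told apart, and the part of these shifts in the results was not tested.

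Slc3a2, the CD98 heavy chain, showed the clearest separation. Its normalized counts in Fnip2C/C WAT were 57.6 in mouse 590, 26.2 in mouse 593, 43.4 in mouse 599 and 17.6 in mouse 638. In Fnip2T/T WAT they were 182 in mouse 607, 102 in mouse 608, 132 in mouse 609, 203 in mouse 657 and 202 in mouse 658. Every Fnip2C/C library lay below every Fnip2T/T library, with the highest of the first well under the lowest of the second. The means were 36.2 ± 17.9 (SD, n = 4) and 164 ± 45.3 (SD, n = 5). The log2 difference was -2.24 (SE 0.33, 95% interval -2.95 to -1.53, limma adjusted p = 9.04e-04), and the exact two-sided permutation p was 0.00794, the smallest this design allows. Slc3a2 was 1 of 2181 WAT genes lower in Fnip2C/C, which are 17.0% of those tested, and the libraries of the genotypes did not overlap for 26.1% of tested WAT genes. Without mouse 593 the log2 difference was -2.13 (adjusted p = 0.00251). The counts behind it were small in the Fnip2C/C libraries, with 15 reads in the lowest and 267 in the highest of the 9 libraries.

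Slc3a2 in liver gave a different picture. Normalized counts were 282, 203, 262, 335 and 305 in Fnip2C/C mice 590, 591, 592, 638 and 639. In Fnip2T/T mice 607, 608, 657, 658 and 659 they were 202, 383, 280.4, 289 and 221. The 2 genotypes covered nearly the same range. On the log2 scale the difference was 0.03 (SE 0.17, 95% interval -0.33 to 0.39, limma adjusted p = 1.00). The WAT difference was thus lower than the liver difference by 2.27 on the log2 scale (SE 0.38, 95% interval from -3.06 to -1.47 for WAT minus liver, limma adjusted p = 2.95e-04). Differences between the genotype effects of the tissues passed the same test for 29.2% of the 10404 genes tested in both tissues, and for 2 of the 8 transporter genes.

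Slc7a5, the leucine-transporting light chain that pairs with Slc3a2, was hardly detected. In Fnip2C/C WAT its reads were 4, 4, 0 and 0 in mice 590, 593, 599 and 638, and in Fnip2T/T WAT 0, 1, 0, 0 and 3 in mice 607, 608, 609, 657 and 658. It had 12 reads over all 9 WAT libraries and 17 over all 10 livers, where single libraries held 0 to 5. It was listed at 0 in 5 WAT and 3 liver libraries. With libraries this deep, a count of 0 allows up to 3 reads, and this covers counting error only. A genotype difference was not detectable at this depth, and the gene was under the minimum mean of 10 normalized counts for testing in both tissues.

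Slc7a1, the high-affinity arginine and lysine carrier CAT1, moved the other way in WAT. Normalized counts in Fnip2C/C WAT were 91.7 in mouse 590, 275 in mouse 593, 151 in mouse 599 and 149 in mouse 638. In Fnip2T/T WAT they were 76.3 in mouse 607, 106 in mouse 608, 84.8 in mouse 609, 57.5 in mouse 657 and 69.7 in mouse 658. Most Fnip2C/C libraries lay above the Fnip2T/T range, but mouse 590 fell within it. The means were 167 ± 77.4 (SD, n = 4) and 78.9 ± 18.2 (SD, n = 5). The log2 difference was 0.99 (SE 0.28, 95% interval 0.37 to 1.60, limma adjusted p = 0.0190), with an exact two-sided permutation p of 0.0238. Higher calls in Fnip2C/C made up 15.1% of WAT genes tested. The highest value was that of mouse 593, whose library carried the ovary transcripts. Without mouse 593 the log2 difference was 0.71 (adjusted p = 0.0488), and without Fnip2T/T mouse 657 it was 0.88 and no longer passed (adjusted p = 0.0506).

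In liver Slc7a1 was sparse. Normalized counts were 6.31, 6.34, 8.20, 1.03 and 8.45 in Fnip2C/C mice 590, 591, 592, 638 and 639. In Fnip2T/T mice 607, 608, 657, 658 and 659 they were 18.9, 4.78, 17.1, 13.2 and 21.3. The Fnip2T/T livers were the higher ones apart from mouse 608, which lay inside the Fnip2C/C range. These values rest on 1 to 23 reads per library. The log2 difference was -1.22 (SE 0.46, 95% interval -2.20 to -0.25, unadjusted limma p = 0.0168, adjusted p = 1.00), and the exact two-sided permutation p was 0.0476, unadjusted. Of all liver genes tested, 1.97% had an unadjusted p under 0.05 and 0.248% had libraries that did not overlap between the genotypes; of the 9 transporter genes tested there, Slc7a1 alone had such a p and none had libraries apart. The WAT difference exceeded the liver difference by 2.21 on the log2 scale (SE 0.59, 95% interval 1.00 to 3.43, limma adjusted p = 0.00780).

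**Figure D1:**
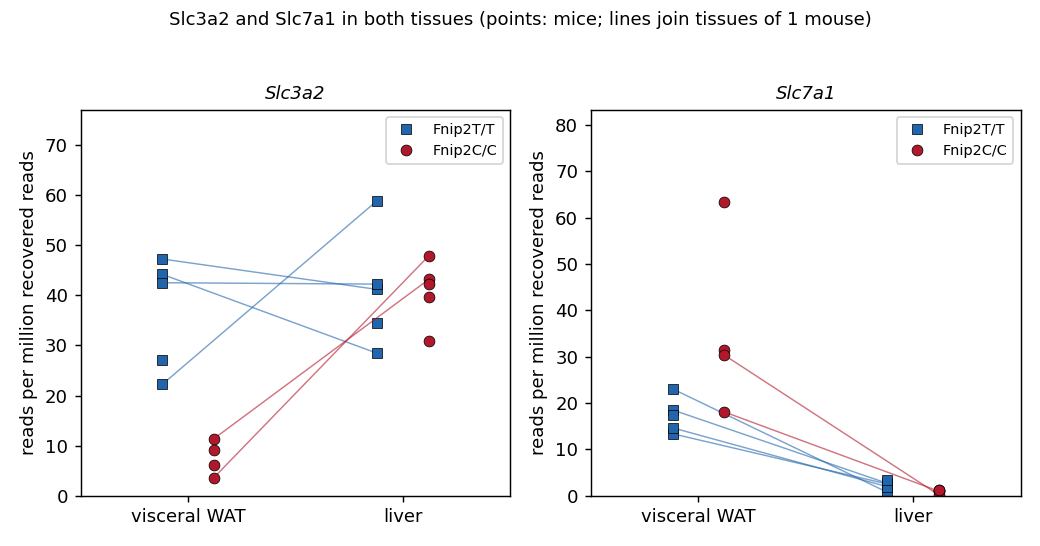
RPM, the reads-per-million level of a gene among the recovered reads of its library (y axis), of Slc3a2 and Slc7a1 in visceral WAT and liver, with squares for Fnip2T/T and circles for Fnip2C/C mice and lines joining the tissues of 1 mouse. Slc3a2 separates the genotypes in WAT and not in liver, and Slc7a1 in liver stays at 3.33 or below in every library.

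Slc7a2, the other cationic amino acid carrier of the group, had WAT normalized counts of 38.8, 48.7, 50.9 and 59.7 in Fnip2C/C mice 590, 593, 599 and 638. The Fnip2T/T values were 37.7, 48.6, 8.93, 50.6 and 44.7 in mice 607, 608, 609, 657 and 658. The groups overlapped, and mouse 609 was low with 8 reads. Its log2 difference was 0.56 (SE 0.43, limma adjusted p = 0.339), also 0.56 without mouse 593 (adjusted p = 0.402) and 0.11 without mouse 609 (adjusted p = 0.732). In liver, where the gene is abundant, values ran from 1128 to 3025 in Fnip2C/C and from 1268 to 2438 in Fnip2T/T mice, with a log2 difference of 0.07 (95% interval -0.51 to 0.64, adjusted p = 1.00).

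The glutamine carriers did not pass the test in either tissue. Slc1a5, a sodium-dependent exchanger of neutral amino acids, had WAT normalized counts of 3359, 1201, 3271 and 2337 in Fnip2C/C mice 590, 593, 599 and 638. They were 3548, 3528, 4807, 3411 and 2772 in Fnip2T/T mice 607, 608, 609, 657 and 658. The lowest value was that of mouse 593, and the groups overlapped through mouse 658. The log2 difference was -0.59 (SE 0.29, limma adjusted p = 0.137) and -0.27 without mouse 593 (adjusted p = 0.393). Slc1a5 in liver lay between 19.7 and 30.6 in Fnip2C/C and between 16.2 and 45.5 in Fnip2T/T mice, with a log2 difference of -0.05 (95% interval -0.59 to 0.50).

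Slc38a2, the system A carrier SNAT2, had WAT normalized counts of 295, 423, 335 and 344 in Fnip2C/C mice 590, 593, 599 and 638. In Fnip2T/T mice 607, 608, 609, 657 and 658 they were 505, 324, 303, 348 and 436. The groups overlapped over most of their range. Its log2 difference in WAT was -0.12 (SE 0.19, 95% interval -0.53 to 0.30, limma adjusted p = 0.666), and -0.21 without mouse 593 (adjusted p = 0.448). In liver its values ran from 599 to 984 in Fnip2C/C and from 505 to 866 in Fnip2T/T mice, with a log2 difference of 0.24 (95% interval -0.09 to 0.57).

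Slc38a3 and Slc38a4, the system N carrier SNAT3 and the hepatic system A carrier SNAT4, were abundant in liver and sparse in WAT. Slc38a3 ranged from 3770.3 to 4615 normalized counts in Fnip2C/C livers and from 2688 to 5042 in Fnip2T/T livers, with a log2 difference of 0.07 (95% interval -0.24 to 0.38). Slc38a4 ranged from 2382 to 5254 in Fnip2C/C livers, with mouse 639 lowest, and from 3946 to 4709 in Fnip2T/T livers. Its log2 difference was -0.10 (95% interval -0.47 to 0.27). In WAT Slc38a3 had 1 to 24 reads per library and a log2 difference of -0.45 (95% interval -1.79 to 0.88, limma adjusted p = 0.598), and Slc38a4 had 19 reads over the 9 libraries and was not tested. Slc38a3 in WAT was at 1.17 in mouse 638 against 11.9 to 22.5 in the other Fnip2C/C mice, and without mouse 638 the sign of its difference turned, to 0.28. Without mouse 593 it was -0.86 (limma adjusted p = 0.319).

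Slc38a9, the lysosomal arginine sensor, differed little. Its WAT normalized counts were 146, 174, 192 and 179 in Fnip2C/C mice 590, 593, 599 and 638. In Fnip2T/T mice 607, 608, 609, 657 and 658 they were 173, 149.8, 111, 147 and 137. Controls 607, 608 and 657 fell within the Fnip2C/C range. For Slc38a9 the log2 difference was 0.27 (SE 0.18, 95% interval -0.11 to 0.66, limma adjusted p = 0.255), and the same to 2 decimals without mouse 593 (adjusted p = 0.324). In liver, values of 88.4 to 116 stood against 86.7 to 108, with a log2 difference of 0.11 (95% interval -0.18 to 0.39).

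Slc43a1, the leucine and phenylalanine carrier LAT3, varied widely in Fnip2C/C WAT. Normalized counts were 288, 69.3, 122 and 185 in Fnip2C/C mice 590, 593, 599 and 638. In Fnip2T/T mice 607, 608, 609, 657 and 658 they were 113, 76.9, 58.0, 99.2 and 97.8. Apart from mouse 593, which was within the control range, each Fnip2C/C library lay above all controls. For Slc43a1 the log2 difference was 0.74 (SE 0.35, limma adjusted p = 0.118); without mouse 593 it was 1.10 and passed the test (adjusted p = 0.0151), and without mouse 590 it was 0.42 (adjusted p = 0.323). In liver the gene had 3 to 28 reads per library, and the genotypes overlapped, with a log2 difference of 0.59 (95% interval -0.41 to 1.60).

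**Figure D2:**
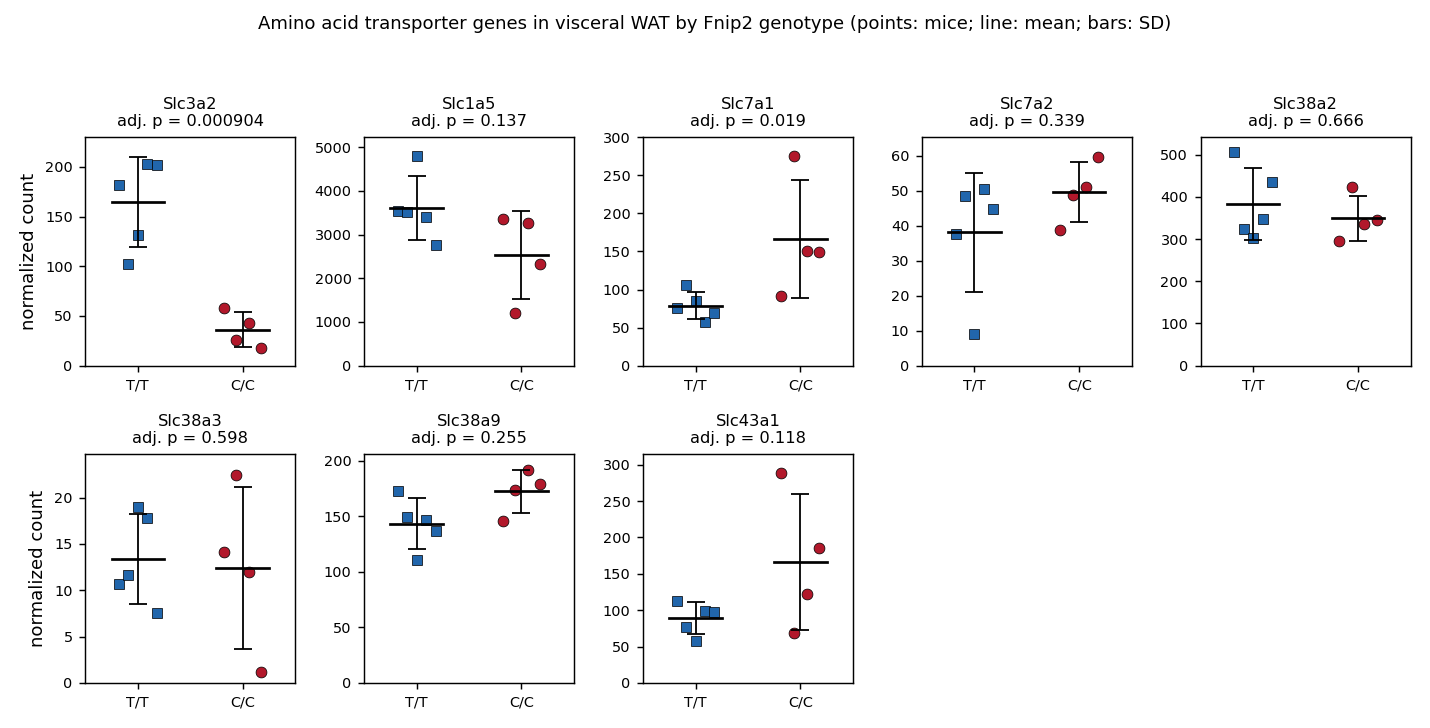
Normalized counts (y axis) of the 8 transporter genes tested in visceral WAT, with 1 point per mouse, the mean as a line and the SD as bars, for Fnip2T/T (n = 5) and Fnip2C/C (n = 4); limma adjusted p-values stand above the panels. The points separate fully for Slc3a2 alone, where all Fnip2C/C mice are at 57.6 or below and all Fnip2T/T mice at 102 or above.

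**Figure D3:**
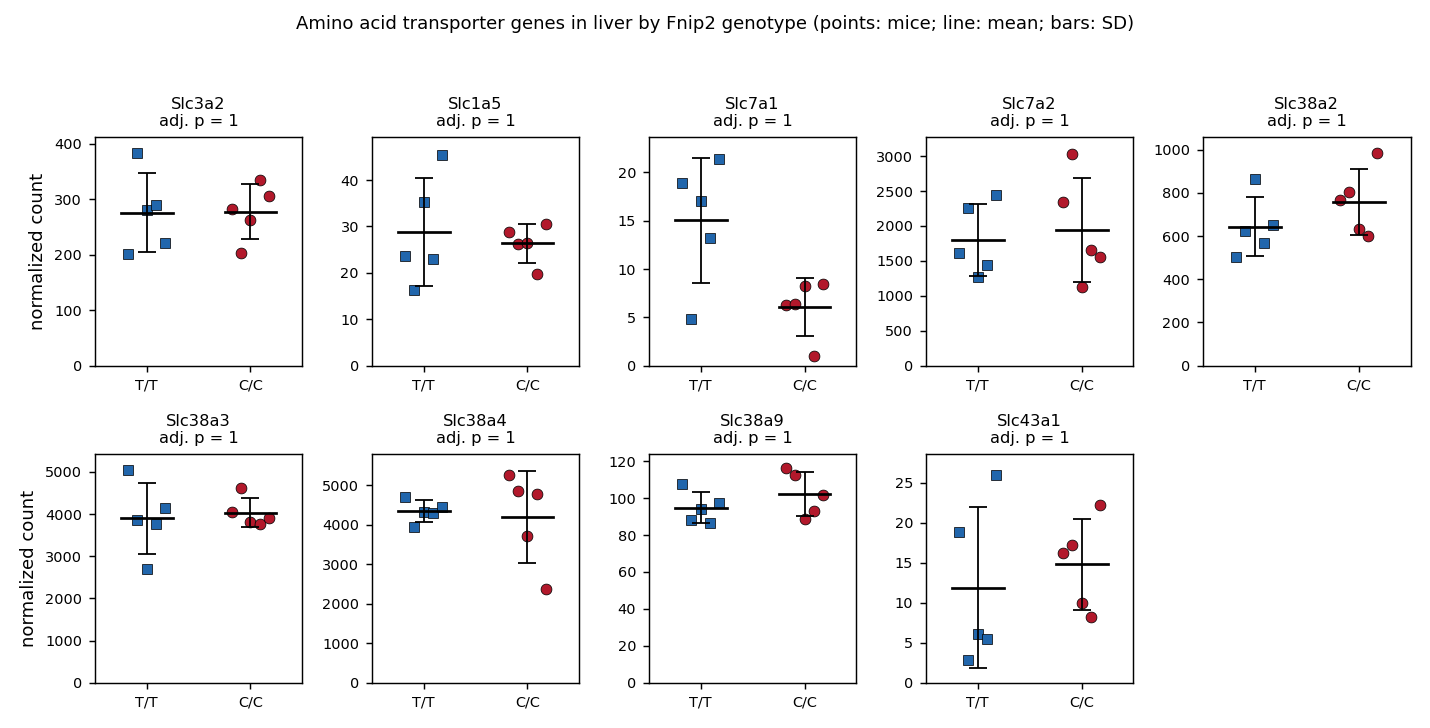
Normalized counts (y axis) of the 9 transporter genes tested in liver, with 1 point per mouse, the mean as a line and the SD as bars, for 5 mice of each genotype. The genotypes overlap in every panel, and Slc7a1 lies at 21.3 or below throughout.

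**Figure D4:**
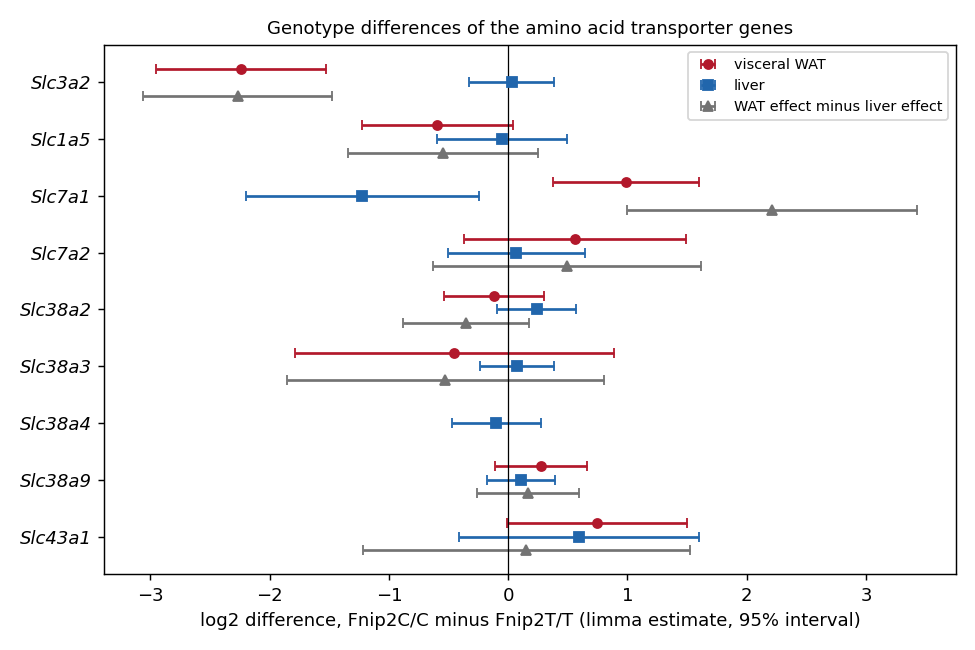
Log2 difference between Fnip2C/C and Fnip2T/T mice (x axis, limma estimate with 95% interval) of each tested transporter gene in visceral WAT (circles) and liver (squares), and the WAT difference minus the liver difference (triangles). Slc3a2 lies at -2.24 in WAT and 0.03 in liver, and Slc7a1 at 0.99 and -1.22.

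The tissues used different members of the group. As RPM, the reads-per-million level among the recovered reads of a library, and as values set side by side with no test since the tables were normalized apart, 4 genes were higher in every WAT library than in any liver, 3 were higher in every liver, and 3 overlapped. Slc1a5 averaged 677 ± 212 (SD, n = 9) RPM in WAT and 4.10 ± 1.32 (SD, n = 10) in liver, and Slc7a1 averaged 25.6 ± 15.6 and 1.57 ± 1.00. Slc43a1 and Slc38a9 were the other WAT genes, at 26.2 ± 13.8 against 1.98 ± 1.18 and at 34.0 ± 6.41 against 14.6 ± 1.71. The liver genes were Slc38a4 at 635 ± 127 RPM against 0.452 ± 0.569 in WAT, Slc38a3 at 588 ± 92.2 against 2.83 ± 1.45, and Slc7a2 at 279.8 ± 99.1 against 9.38 ± 3.16. Slc38a2 overlapped between tissues, at 80.4 ± 20.5 in WAT and 103.7 ± 21.4 in liver, as did the barely detected Slc7a5.

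Slc3a2 overlapped between the tissues through the control mice. Its mean was 7.51 RPM in Fnip2C/C WAT, 36.7 in Fnip2T/T WAT, 40.8 in Fnip2C/C liver and 41.1 in Fnip2T/T liver. In order of level, Fnip2C/C WAT stood lowest, with every library at 11.4 or below, and the other groups did not differ beyond their spread. The order for Slc7a1 was 0.900 in Fnip2C/C liver, 2.23 in Fnip2T/T liver, 17.4 in Fnip2T/T WAT and 35.8 in Fnip2C/C WAT. Here the genotypes overlapped within each tissue, while the tissues stood apart.

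Other genes of amino acid transport in WAT were read from lists that hold none of the 10 genes. The partners of heteromeric transporters comprise the other light chains and the second heavy chain; 4 of 7 could be tested and 1 passed, where 32.1% of all WAT genes tested did. Slc7a7, a light chain that carries cationic amino acids with Slc3a2, was lower at 14.3 ± 7.23 (SD, n = 4) normalized counts against 31.4 ± 10.5 (SD, n = 5), a log2 difference of -1.15 (SE 0.40, limma adjusted p = 0.0414). Slc7a10, the light chain Asc-1 found in adipocytes, averaged 1348 ± 433 in Fnip2C/C and 872 ± 383 in Fnip2T/T WAT (log2 difference 0.66, adjusted p = 0.136), and Slc7a8 averaged 7.89 and 14.5 (-0.51, adjusted p = 0.542). The list held no passing gene after leaving out any 1 of 7 libraries (Fnip2C/C 590, 599 or 638, Fnip2T/T 607, 608, 657 or 658). It held 2, 1 lower and 1 higher, without Fnip2C/C 593 or Fnip2T/T 609, and Slc7a10 was then the higher one (0.94, adjusted p = 0.0325, and 0.88, adjusted p = 0.0366). Over all WAT genes, fits without 1 library called from 3010 of 12790 tested (without Fnip2T/T 657) to 4273 of 12835 (without Fnip2C/C 590).

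Of 22 other plasma membrane transporters, 12 were tested and 3 were lower in Fnip2C/C WAT, with none higher; without mouse 593, 1 was lower and 2 were higher. The share of all WAT genes tested that passed was 32.1% with all mice, and 3761 of 12691 passed without mouse 593. Slc1a1, a glutamate carrier, was at 4.51 ± 2.36 (SD, n = 4) normalized counts against 17.5 ± 4.25 (SD, n = 5), and the genotypes did not overlap (log2 difference -1.83, SE 0.45, limma adjusted p = 0.00869). Such separation was found for 26.1% of all tested WAT genes. Slc16a10, an aromatic amino acid carrier, and the glycine carrier Slc6a9 were lower by smaller margins (-0.79, adjusted p = 0.0440, and -1.29, adjusted p = 0.0476), and neither passed without mouse 593 (adjusted p = 0.0997 and 0.0743). The Fnip2C/C means of Slc1a1 and Slc6a9 (8.85) were under the minimum mean for testing, and Slc1a1 had 2 to 25 reads per library. Leaving out 1 library left between 1 and 3 genes of this list past the test. The count was 1 without Fnip2C/C 590 or 638 or without Fnip2T/T 607, 657 or 658. Calls over all WAT genes then ranged from 3010 of 12790 tested (without Fnip2T/T 657) to 4273 of 12835 (without Fnip2C/C 590). The median log2 difference of the list was -0.23, against 0.02 over all WAT genes tested and 0.08 over the 8 tested genes of the group described here.

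Lysosomal and mitochondrial carriers went both ways. Of 8 tested lysosomal transporters, 2 rose and 2 fell in Fnip2C/C WAT, against 32.1% of all WAT genes, and leaving out 1 library left 3 or 4, with 1 higher and 2 lower without mouse 593. The cystine exporter Ctns was higher, at 125 ± 15.7 (SD, n = 4) normalized counts against 63.8 ± 9.49 (SD, n = 5), with no overlap (log2 difference 0.96, SE 0.19, limma adjusted p = 0.00329). Libraries of the genotypes also did not overlap for 26.1% of all tested WAT genes. Mfsd1, at 57.5 against 127, and the proton-coupled carrier Slc36a1, at 5.68 against 25.9, were lower (-1.09, adjusted p = 0.00466, and -2.18, adjusted p = 0.00981). Of 9 tested mitochondrial carriers 1 rose and 2 fell, a share near the 32.1% of all WAT genes: the serine carrier family member Sfxn3 was higher (1.28, adjusted p = 0.0126), and the glycine carrier Slc25a38 and the glutamate carrier Slc25a22 were lower (-1.90, adjusted p = 0.00278, and -2.99, adjusted p = 0.0104). Without mouse 593, 5 of these 9 passed, 2 higher and 3 lower. In that fit 3761 of all 12691 WAT genes tested passed. Slc25a38 averaged 9.06 normalized counts in Fnip2C/C and 36.8 in Fnip2T/T WAT. Slc25a22 averaged 2.68 and 31.0, with 0 to 98 reads per library, and its genotypes overlapped. The Fnip2C/C means of Slc25a38, Slc25a22 and Slc36a1 were under the minimum mean for testing, so the sizes of their differences rest on few reads. Over alternatives that kept all mice, the log2 difference of Slc25a22 lay between -3.54 and -1.45 and passed in each.

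The amino acid sensing list covers the Rag GTPases, the Ragulator, the GATOR complexes, the cytosolic amino acid sensors and the folliculin complex, the machinery to which Slc38a9 and Fnip2 belong. Of 27 tested genes, 3 rose and 6 fell in Fnip2C/C WAT, a share near the 32.1% of all WAT genes. Without mouse 593, 2 rose and 4 fell, where 3761 of all 12691 WAT genes tested passed. Wdr24 of GATOR2 was at 4.54 ± 1.61 (SD, n = 4) normalized counts against 24.2 ± 5.12 (SD, n = 5, log2 difference -2.21, SE 0.38, limma adjusted p = 0.00155). It had 2 to 39 reads per library, and its Fnip2C/C mean was under the minimum of 10 for testing. Sec13 of the same complex (-2.18, adjusted p = 0.00236) and the GTPase Rraga (-1.80, adjusted p = 0.00273) were also lower. None of these 3 genes, named for the lowest p of the list, overlapped between genotypes. Neither did 26.1% of all tested WAT genes. Fnip2 itself, a member of that list, averaged 22.8 ± 6.99 in Fnip2C/C and 28.3 ± 10.5 in Fnip2T/T WAT (log2 difference -0.27, adjusted p = 0.580). In the 5 livers of each genotype it averaged 155 ± 29.2 (SD) and 104 ± 33.2 (SD). That log2 difference was 0.63 (limma adjusted p = 1.00, unadjusted p = 0.0148). The edit does not delete Fnip2, so this level does not check the labels.

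The ATF4 list holds genes that cells induce when amino acids run short, a program to which Slc3a2 and Slc7a1 are known to belong. Of 20 tested genes, 4 rose and 3 fell in Fnip2C/C WAT, again a share near the 32.1% of all WAT genes. Ddit3, a stress transcription factor, was at 923 ± 348 (SD, n = 4) normalized counts against 297 ± 155 (SD, n = 5; log2 difference 1.70, SE 0.36, limma adjusted p = 0.00443). The seryl-tRNA synthetase gene Sars (0.82, adjusted p = 0.0103) and Atf4 (0.78, adjusted p = 0.0267) were higher too, whereas Asns, the asparagine synthetase gene, was among those lower (-0.68, adjusted p = 0.0487; named after its value was seen). These counts depended on single libraries. In all, 2 genes passed without Fnip2C/C 593 or 638 or Fnip2T/T 607, and 3 without Fnip2T/T 657 or 658. There were 4 without Fnip2T/T 609 and 10 without Fnip2C/C 590. Calls over all WAT genes moved too, from 3010 of 12790 tested without Fnip2T/T 657 to 4273 of 12835 without Fnip2C/C 590. No gene of the list, Asns included, was called lower without Fnip2C/C 593 or 638 or without Fnip2T/T 607 or 609. Atf4 kept its call in 4 of 9 fits that left out 1 library and lost it without mouse 593 (adjusted p = 0.0534).

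Of 10 tested enzymes that use the transported amino acids, 4 passed the test in WAT, 1 higher and 3 lower in Fnip2C/C, against 32.1% of all WAT genes. Dbt and Bckdhb, subunits of the complex that degrades branched-chain amino acids, were lower in Fnip2C/C mice without overlap (log2 difference -0.93, limma adjusted p = 0.0111, and -0.66, adjusted p = 0.0211). Of all tested WAT genes, 26.1% had libraries without such overlap. Bckdhb did not pass without mouse 593 (-0.52, adjusted p = 0.0564). Bckdha and Dld, also subunits of that complex, leaned in opposite directions and did not pass (0.44, adjusted p = 0.0942, and -0.71, adjusted p = 0.0611). The count of the list was 2 without Fnip2C/C 593 or 638 or Fnip2T/T 658, and 3 without Fnip2T/T 607 or 657. It was 4 without Fnip2C/C 590, 5 without Fnip2C/C 599 or Fnip2T/T 608 and 6 without Fnip2T/T 609. Over all WAT genes, these fits called from 3010 of 12790 tested (without Fnip2T/T 657) to 4273 of 12835 (without Fnip2C/C 590).

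In liver, none of the 7 lists had a gene past the test, and the genes with the lowest p were Slc7a7 (0.26), Slc1a4 (-0.58), Slc66a1 (0.32), Slc25a22 (-0.22), Fnip2 (0.63), Chac1 (1.64) and Bckdha (0.12), all log2 differences with an adjusted p of 1.00. Chac1, an ATF4 target that degrades glutathione, averaged 23.1 ± 7.76 in Fnip2C/C and 7.82 ± 6.67 in Fnip2T/T livers (SD). Its unadjusted limma p was 5.89e-04, it did not pass after adjustment, and the genotypes overlapped. Chac1 had 3 to 33 reads per liver library. Its Fnip2T/T mean was under the minimum mean for testing, so the size of its difference rests on few reads. The numbers at an unadjusted p under 0.05 were 231 over all liver genes with limma, 269 with edgeR and 225 with DESeq2, and all of them gave 0 adjusted calls. In WAT 43.9% of tested genes had such a p, and 2 of the 8 transporter genes.

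**Figure D5:**
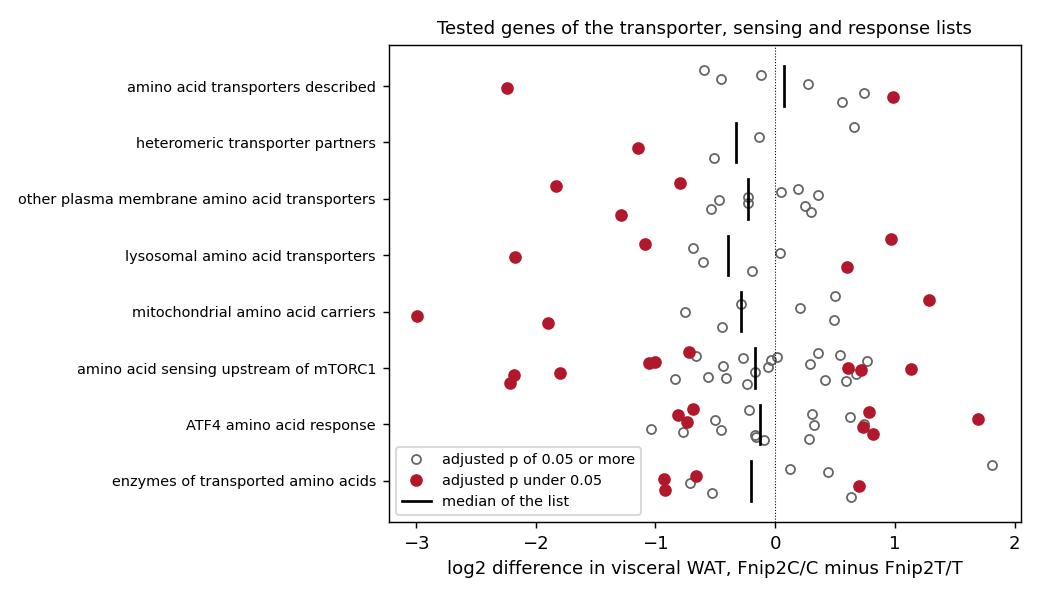
Log2 difference between Fnip2C/C and Fnip2T/T mice in visceral WAT (x axis) of each tested gene of the 10 transporters and of 7 related lists, with filled points for a limma adjusted p under 0.05, open points for the others and a bar at the list's median. Slc3a2 (-2.24) and Slc7a1 (0.99) are the 2 filled points in the top row.

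Promoter sequences from RefSeq (GRCm38.p6, 250 bases before to 50 after each start) were found for 6 of the 10 genes, 9 promoters in all: Slc3a2, Slc7a1, Slc38a2, Slc38a4, Slc38a9 and Slc43a1. The core of the amino acid response element bound by ATF4-type factors, TGATGNAA, was in 3.97% of 32851 mouse promoters and in none of these 9. The E-box CACGTG, a site type bound by TFEB and related factors downstream of the folliculin complex, was in 7.15% of promoters and in 1 of these 9, that of Slc43a1. Both strands were searched. The stretch is shown because it holds the 1 match, in capitals, 64 to 59 bases before the start on the plus strand at chr2:84840247-84840276.
Slc43a1: agggtctccctcCACGTGgcagccgtggga
A match describes letters in a window and no binding, and the absence of a match says only that these letters are not in it.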

How the data were processed

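RNA libraries of visceral WAT and liver were made with QuantSeq 3′ mRNA-Seq FWD, which counts reads near transcript ends, from 500 ng and 250 ng of RNA, and 4 runs per mouse were already combined. The authors deposited for each tissue a table whose signal values are read counts divided by 1 size factor per library. The submitters' processing notes name FastQC 0.11.9, HISAT2, SAMtools 1.12, HTSeq, DESeq2 and GRCm39, with no roles. All values (100%) gave back whole reads (within 5.82e-10), which served for depth and for edgeR 4.0.16 and DESeq2 1.42.0, calling 4153 and 4722 WAT genes. The WAT table held 1 column that no label describes, which was not used.

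Groups came from the labels. In each tissue, genes averaging 10 or more normalized counts were tested on log2(value + 1) with limma 3.58.1 (trend and robust eBayes, R 4.3.3), with Benjamini-Hochberg adjustment over all genes tested and a threshold of 0.05. The tissues were compared by an interaction contrast over 19 libraries. Single genes also got an exact two-sided permutation test over 126 (WAT) or 252 (liver) groupings. The same mouse number in both tissues marks 1 mouse, so mouse was tried as a block; deviations of the 6 shared mice correlated between -0.203 and 0.156.

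The 10 genes and all lists were chosen with earlier results of these data known. Named list genes are the 3 with the lowest WAT p and the 1 with the lowest liver p per list; 1 of them is not reported here. Alternatives covered pseudocounts, filters, scaling, weights, tools, mouse number and each mouse left out. Reads carry no molecular identifiers, so they are not independent molecules.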

Additional observations from a re-analysis of the deposited data

Results flagged for a closer look

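The genotype difference differed between the tissues for 2 of the 8 transporter genes tested in both, by limma's interaction contrast. The same test passed for 29.2% of all 10404 genes tested in both tissues. For Slc3a2 the log2 difference in WAT minus that in liver was -2.27, and for Slc7a1 it was 2.21. The Slc7a1 liver values behind it rest on 1 to 23 reads per library, and met the minimum mean for testing only through the Fnip2T/T mice. Among 34 gene and group combinations checked for a library standing far from the rest, 1 was picked out, the Slc7a1 normalized count of 1.03 in the liver of Fnip2C/C mouse 638, which was 1 read, against 6.31 to 8.45 in the other 4. Chance picks out about 1 in 20 such combinations. Without that mouse the Slc7a1 liver difference was -0.82 and the difference between the tissues was 1.82 (limma adjusted p = 0.0174).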

How the results depend on the processing

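Slc3a2 and its difference between tissues passed the test under every alternative run, with log2 values between -2.50 and -1.95 in WAT and between -2.55 and -1.91 for the tissue difference. Slc7a1 in WAT lay between 0.71 and 1.24 over left-out mice and between 0.91 and 1.08 otherwise, and its call was lost only without Fnip2T/T mouse 657. WAT transporter calls numbered 1 to 3 and tissue-difference calls 1 to 2 over left-out mice. The latter varied because Slc7a1 in liver fell under the filter without mouse 607, 657 or 659. With a minimum mean of 50 the latter count was 1 for the same reason. Over left-out mice, calls over all genes ranged from 3010 to 4273 in WAT and from 2165 to 3352 for the tissue difference. Quantile normalization added Slc1a5 (-0.79, adjusted p = 0.0462) and DESeq2 added Slc43a1 (0.90, adjusted p = 0.0432). Liver calls stayed at 0 in all alternatives. With mouse as a replicate block, 2753 genes and 2 transporter genes passed the tissue-difference test, against 3033 and 2, and no call on a transporter gene changed.

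Differences near 0 changed sign in some settings, none of them past the threshold. Over left-out mice the liver ranges were -0.0727 to 0.158 for Slc3a2, -0.22 to 0.13 for Slc1a5, -0.11 to 0.24 for Slc7a2, -0.0543 to 0.17 for Slc38a3 and -0.19 to 0.0910 for Slc38a4. The WAT range was -0.86 to 0.28 for Slc38a3, and the tissue-difference ranges were -0.94 to 0.18 for Slc38a3 and -0.21 to 0.51 for Slc43a1. Slc1a5 in liver was 0.0117 with a term for mouse number, and the tissue difference was 0.34 for Slc38a3 under quantile normalization and -0.0326 for Slc43a1 with library weights. The causes were not tested. Depth limits Slc7a5 in both tissues, Slc38a4 in WAT, and Slc7a1 and Slc43a1 in liver.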
